A study of Mus musculus with 55 samples.

Results

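The Notch pathway was examined through 10 genes: the receptors Notch1, Notch2, Notch3 and Notch4, the ligands Dll1, Dll4, Jag1 and Jag2, and the target genes Hes1 and Hey1. They were picked by name from the 47937 genes of the bulk RNA-seq count table, and the chromatin state at each start site was read from a segmentation of wild-type islets. All 10 were counted in every library and passed the filter on low counts. The libraries were made from whole islets of male C57B6/J mice. Mice labelled wild type (WT) and heterozygous (HET) were compared with knockout mice (βEedKO, here KO) that are homozygous for a floxed allele of Eed, a core subunit of Polycomb repressive complex 2 (PRC2), and carry the RIP-cre transgene. Whether the WT and HET mice carried Cre is not given in the labels. At 8 weeks of age there were 3 WT, 3 HET and 3 KO libraries, and at 25 weeks 3 WT, 2 HET and 2 KO libraries, 16 in all. Libraries were made from individual animals or small pools, and each KO library of the older age from a larger pool. The insulin promoter drives Cre in beta cells, so the endothelial, mural, duct and other cells of the islet should keep Eed. In bulk RNA, fewer cells of a type and less RNA per cell cannot be told apart.

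Notch receptors are single-pass membrane proteins that are cleaved when a Delta or Jagged ligand on a neighbouring cell binds them. The freed intracellular part enters the nucleus, joins the DNA-binding protein RBPJ and Mastermind-like coactivators, and switches on repressors of the Hes and Hey families. In the developing pancreas this signalling holds progenitors back from the endocrine fate by keeping Neurog3 low, and in the adult organ several receptors and ligands are known from blood vessels and from the cells that wrap them.

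Library totals ran from 4645393 to 22925359 counted reads, and the members from 12 reads (Hey1) to 1343 reads (Notch1) in a single library. Levels are given as CPM (reads of a gene relative to the TMM-scaled size of the library). Eed itself was at 13.4 to 15.6 CPM in the 5 KO libraries and at 19.3 to 33.1 CPM in the 6 WT libraries, with no overlap. At 8 weeks 4 libraries stood apart from the rest. In WT replicates 3 and 4 and KO replicates 4 and 5, the summed level of 10 interferon-induced genes was 3433 to 5086 CPM, against 58.6 to 154 CPM in the other libraries. This split ran through both genotypes and no label accounts for it. The beta cell markers of the labelled tissue were present throughout, at a summed 13874 and 17204 CPM in the 25-week KO libraries and 122324 to 218493 CPM in all others.

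Chromatin of WT islets came segmented into 24 states, lettered A to X. Dll1, Jag1, Jag2, Hes1 and Hey1 (5 of 10) had state A or B, the states of active start sites, at the annotated start. Of the 18086 genes tested for expression on segmented chromosomes, 52.9% had A or B there. The receptors and Dll4 did not. Notch2, Notch3 and Dll4 started in state L, a bivalent state with both H3K4me3 and H3K27me3, Notch1 in the Polycomb-repressed state O, and Notch4 in state R, a weak mixture of Polycomb and H3K9 methylation. Over all those genes 21.5% started in the bivalent states K, L or M and 9.23% in the Polycomb states N, O or P. The segmentation gives letters without a measured level or replicates, so these are descriptions.

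An active start did not mean that the surroundings were free of Polycomb marks. Within 5000 bases on either side of the start, bivalent states covered 40.0% and Polycomb states 52.0% of the Hey1 window, with state B limited to the stretch from -544 to 255. The Jag1 window was similar, with 32.0% bivalent, 54.0% Polycomb and 14.0% active. Hes1 was the member with the least, 4.00% bivalent and 0% Polycomb, and 41.0% of its gene body was in state B. Notch2 had the reverse arrangement, with a single 200-base bin of state B from 74 to 273 bases after a start in state L, flanked by bivalent chromatin over 44.0% and Polycomb chromatin over 54.0% of the window. Over the whole gene bodies, state O covered 51.2% of Notch2, 52.1% of Notch3 and 39.6% of Notch4. In Jag2, by contrast, states of elongation and cis-regulation (D to J) covered 90.1% of the gene body, and in Dll1 63.5%.

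**Figure D1:**
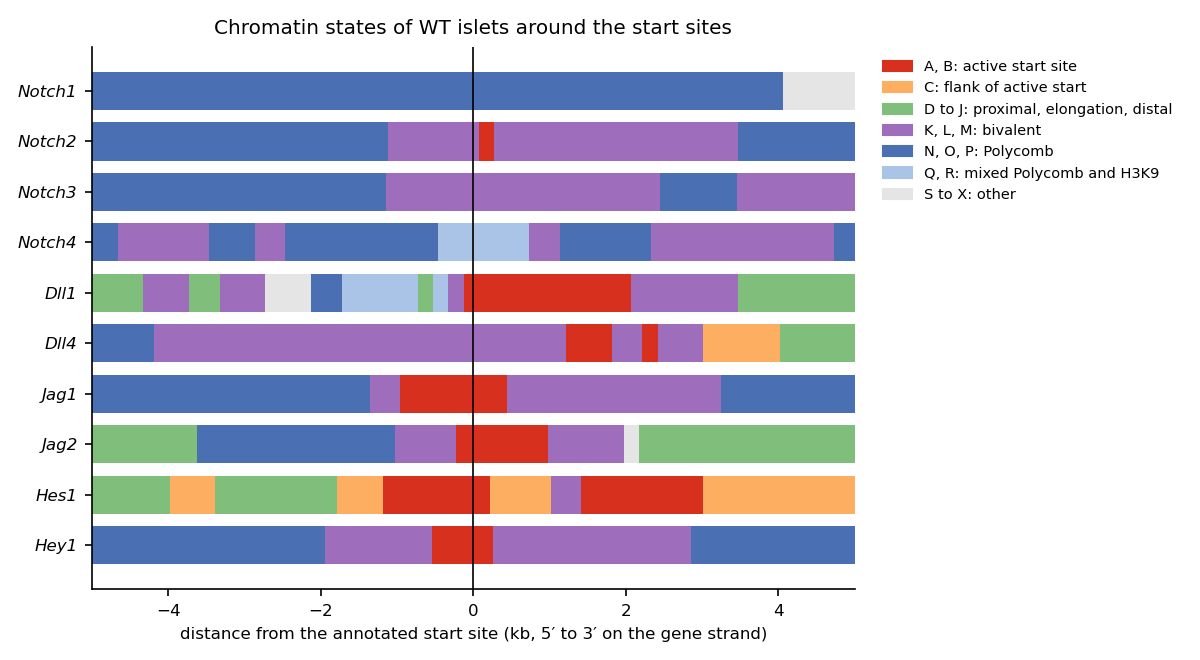
Chromatin states of WT islets from 5 kb before to 5 kb after the annotated start of each of the 10 genes (horizontal axis in kb, on the gene's own strand), grouped into 7 colour classes. The red active start states lie at the start of Dll1, Jag1, Jag2, Hes1 and Hey1, and purple bivalent or blue Polycomb states surround every start except that of Hes1.

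For Notch1 the choice of start matters. None of its 11 annotated transcript starts lay in state A or B, and the RefSeq start, 12841 bases into the annotated gene, lay in state L. Counting any annotated transcript start, 6 of the 10 genes had an active one, the addition being Notch4, whose internal starts include 1 in state B.

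RefSeq promoters (build GRCm38.p6, 250 bases before to 50 after the start) were matched for 8 of the 10 genes, in 9 windows, and not for Hes1 and Hey1. The density of CG dinucleotides, the sequence feature with which PRC2 sites in mammals are associated, differed widely among them, from 5 in Notch4 to 63 in Jag2, against a median of 7 over 32851 RefSeq promoters. Of all promoters, 3.46% held at least as many as the 41 of Notch2, 23.1% as many as the 22 of Jag1 and 62.0% as many as the 5 of Notch4. These are printed below, with the 15 of the upstream Dll1 start, because they show the bivalent, active and mixed start states side by side. Capitals mark each CG dinucleotide.

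Notch2, chr3:98013288-98013587, plus strand, RefSeq start in state L: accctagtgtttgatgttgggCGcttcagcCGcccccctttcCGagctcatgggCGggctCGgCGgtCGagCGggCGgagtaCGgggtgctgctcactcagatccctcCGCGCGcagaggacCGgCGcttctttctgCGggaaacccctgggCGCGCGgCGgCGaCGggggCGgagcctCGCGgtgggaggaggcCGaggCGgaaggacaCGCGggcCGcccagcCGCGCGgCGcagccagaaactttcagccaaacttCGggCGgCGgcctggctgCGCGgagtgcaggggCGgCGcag
Jag1, chr2:137116471-137116770, minus strand, RefSeq start in state B (annotated start in A): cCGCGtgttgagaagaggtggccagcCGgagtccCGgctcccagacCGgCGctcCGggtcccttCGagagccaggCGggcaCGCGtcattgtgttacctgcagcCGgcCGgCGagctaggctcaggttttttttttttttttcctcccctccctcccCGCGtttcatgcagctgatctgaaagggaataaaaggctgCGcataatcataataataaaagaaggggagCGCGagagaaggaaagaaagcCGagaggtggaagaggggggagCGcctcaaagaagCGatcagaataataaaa
Dll1, chr17:15376883-15377182, minus strand, RefSeq start in state B: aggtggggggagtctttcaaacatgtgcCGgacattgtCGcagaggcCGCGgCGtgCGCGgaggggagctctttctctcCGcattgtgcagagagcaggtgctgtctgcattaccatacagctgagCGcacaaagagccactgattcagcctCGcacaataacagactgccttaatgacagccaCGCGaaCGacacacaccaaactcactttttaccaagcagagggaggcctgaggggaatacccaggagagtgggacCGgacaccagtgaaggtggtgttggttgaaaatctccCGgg
Notch4, chr17:34564045-34564344, plus strand, RefSeq start in state R: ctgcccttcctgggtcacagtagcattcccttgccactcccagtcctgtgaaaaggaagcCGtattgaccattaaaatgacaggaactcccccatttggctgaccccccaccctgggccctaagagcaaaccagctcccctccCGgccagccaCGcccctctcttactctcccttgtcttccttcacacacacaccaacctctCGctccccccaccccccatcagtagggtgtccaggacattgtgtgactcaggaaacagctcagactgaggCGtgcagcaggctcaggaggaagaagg

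Searched on both strands, the core of the RBPJ site (TGGGAA) occurred in 0 of the 9 windows, while 25.6% of all promoters held it. The N-box bound by Hes proteins (CACNAG) occurred in the windows of Notch1, Notch2, Notch3, Dll4 and Dll1, and in 42.5% of all promoters. These letters are descriptions of 300-base windows and say nothing of binding elsewhere.

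Per kb of exon, Hes1 was the most abundant member in 25-week WT islets at 7.03 ± 2.37 CPM per kb (SD, n = 3), above every library of the next, Dll4, at 4.08 ± 0.54. Notch1 (2.87 ± 1.49), Jag2 (2.73 ± 0.63) and Dll1 (2.45 ± 0.33) followed and overlapped with their neighbours in this order. Notch3 (1.46 ± 0.81) did not overlap with Dll1 and came below it, followed by Notch4 (1.42 ± 0.39), Jag1 (1.06 ± 0.28), Hey1 (0.82 ± 0.23) and Notch2 (0.47 ± 0.17), each overlapping with the next. In 8-week WT islets the order opened with Dll1 at 7.08 ± 4.49 and Hes1 at 5.38 ± 1.77 CPM per kb, and every neighbour in it overlapped with the next. Notch2, the receptor with the lowest level in WT islets at both ages, had the largest fold change of the members in 25-week KO islets.

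The first comparison asks which pathway genes differed once beta cells had lacked PRC2 for many weeks. In 25-week KO islets 8 of the 10 members had a higher fitted level than in WT islets, as did 51.7% of all genes. Of the members 1, Notch2, passed the test at an adjusted p under 0.05 (edgeR's quasi-likelihood test, Benjamini-Hochberg over 18685 genes). Over all genes 6.6% passed in either direction and 4.58% as higher. The median log2 fold change was 0.70 over the members and 0.03 over all genes. In 6 members, Notch2, Notch3, Jag1, Jag2, Hes1 and Hey1, both KO libraries lay above all 3 WT libraries, as they did in 24.7% of all genes tested. In 4 of these, Notch2, Jag1, Hes1 and Hey1, both lay above every other library of the study, as in 8.94% of all genes.

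Among the receptors, Notch2 was at 18.9 and 16.3 CPM in the 2 KO libraries and at 3.92, 4.21 and 7.19 CPM in the 3 WT libraries. The 2 HET libraries of that age had 6.76 and 4.73 CPM. The KO libraries thus stood clear of every control, and the fitted level was 3.29-fold higher (log2 fold change 1.72, SE 0.45, 95% interval 0.71 to 2.72, edgeR adjusted p = 0.0494). The call lies at the threshold. Adjusted p in edgeR was 0.0527 with the replicate number as a block. Without single libraries it was 0.110 (WT replicate 2 of 25 weeks), 0.195 (WT replicate 3), 0.0706 (WT replicate 4), 0.228 (KO replicate 2), 0.164 (KO replicate 3), and 0.0792, 0.0668 and 0.0724 without WT replicate 4, KO replicate 4 or KO replicate 5 of 8 weeks, with log2 fold changes from 1.57 to 2.05. Notch2 was called in 11 of 22 alternatives, and DESeq2 gave an adjusted p of 0.00856.

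Notch3, the receptor best known from pericytes and vascular smooth muscle, was at 22.2 and 20.5 CPM in KO and at 4.36, 16.3 and 14.9 CPM in WT libraries of 25 weeks. The groups did not overlap, but WT replicate 2, the library with the fewest reads of the study (4645393), lay far below the others. The part of its depth was not tested. The log2 fold change of 0.77 (SE 0.58) did not pass (edgeR adjusted p = 0.509). Notch1, the most widely expressed receptor, was at 45.9 and 51.1 CPM in KO and at 16.6, 51.5 and 54.6 CPM in WT libraries, where WT replicate 2 again was the low one. Its log2 fold change was 0.18 (95% interval -1.10 to 1.46), and -0.19 without that library. Notch4, a receptor known from endothelium, was at 9.82 and 9.37 CPM in KO and 7.85, 13.2 and 13.4 CPM in WT libraries, inside the WT range (log2 fold change -0.32, 95% interval -1.51 to 0.87).

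Of the ligands, Jag1 came closest to the threshold. Its KO libraries were at 13.2 and 15.1 CPM and its WT libraries at 4.36, 6.62 and 7.50 CPM, with no overlap, and the log2 fold change was 1.13 (SE 0.33, 95% interval 0.40 to 1.86, edgeR adjusted p = 0.0721). DESeq2 gave 0.0225, and Jag1 was called in 5 of the 22 alternatives. Jag2 was at 29.3 and 36.0 CPM in KO against 14.2, 22.8 and 20.1 CPM in WT libraries. The groups were apart, but HET replicate 2 of the same age, at 29.2 CPM, almost reached the lower KO library, and the log2 fold change of 0.72 (SE 0.28) had an adjusted p of 0.175. Dll4, the ligand of sprouting vessels, was level, at 14.6 and 17.0 CPM in KO and 14.0, 18.0 and 15.2 CPM in WT libraries (log2 fold change -0.05, 95% interval -0.85 to 0.75). Dll1 was at 6.92 and 23.7 CPM in the 2 KO libraries, below and above all 3 WT libraries (8.72, 11.4 and 10.9 CPM), so its log2 fold change of 0.50 turned to -0.63 without KO replicate 3. That library had the higher interferon-induced level of the 25-week libraries, 154 CPM.

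Both target genes, which encode basic helix-loop-helix repressors, had their highest values in the study in the 25-week KO libraries. Hey1 was at 5.94 and 9.12 CPM, against 2.62, 3.46 and 1.93 CPM in WT and 2.56 and 1.69 CPM in HET libraries. The next highest library of the study had 3.84 CPM, and the fitted level was 2.70-fold higher (log2 fold change 1.43, SE 0.50, 95% interval 0.32 to 2.54), with an adjusted p of 0.131. With WT and HET libraries pooled as control the edgeR adjusted p was 0.0163, the lowest of the 22 alternatives, beside 14.1% of all genes called. Hey1 was called in 2 of the 22. Hes1 was at 19.9 and 27.7 CPM in KO and 13.5, 9.93 and 19.5 CPM in WT libraries, where WT replicate 4 came within 1 CPM of the lower KO library, and its log2 fold change of 0.68 (SE 0.34) had an adjusted p of 0.305.

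**Figure D2:**
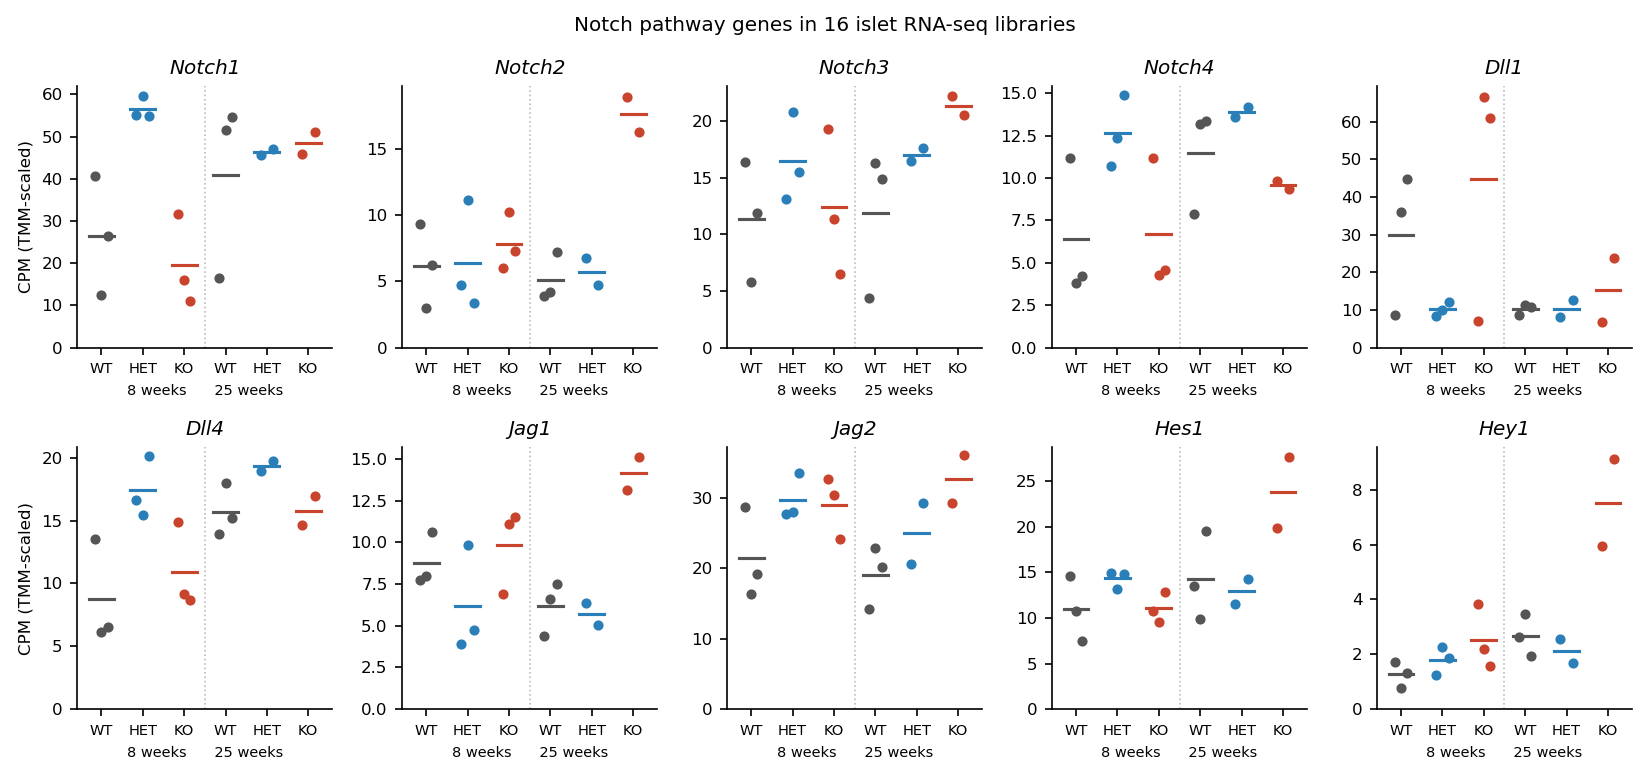
Level of each member (vertical axis, TMM-scaled CPM from 0) in the 16 libraries, by genotype and age; points are libraries and lines are group means. The 25-week KO points lie above all others for Notch2, Jag1, Hes1 and Hey1, and Dll1, Dll4 and Notch4 split within the 8-week WT and KO groups.

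Summed markers of fibroblasts, duct cells, pericytes and the other endocrine cells also lay higher in both 25-week KO libraries than in the WT libraries, whereas those of endothelial, macrophage, Schwann and acinar cells overlapped with WT. The fibroblast and stellate list (6 genes) summed to 355 and 233 CPM in KO against 76.4 to 118 CPM in WT libraries, and 4 of its genes were called higher. The duct list (7 genes) summed to 731 and 587 CPM against 266 to 326 CPM, with 5 of the 7 above WT and 3 called higher. Krt19, among those called, was at 22.9 and 83.1 CPM against 1.96 to 5.57 CPM. The pericyte and smooth muscle list (8 genes) summed to 273 and 302 CPM against 142 to 182 CPM. Of its genes 7 were above WT and 0 called, with a median log2 fold change of 0.93. Pdgfrb was at 15.5 and 14.0 CPM against 5.89 to 11.8 CPM. Endothelial markers (10 genes) summed to 577 and 470 CPM against 472 to 530 CPM, with 0 called, 6 of the 10 above WT and a median log2 fold change of 0.11. The 2 endothelial genes given singly were both among the 6, with Pecam1 at 74.6 and 52.8 CPM against 34.7 to 39.7 CPM, and Cdh5 at 29.8 and 33.2 CPM against 15.5 to 21.3 CPM. Macrophage markers (6 genes) summed to 416 and 126 CPM against 86.7 to 169 CPM. Their log2 fold change was above 0 in all 6, with a median of 1.22 and 0 called. Schwann cell markers (5 genes) summed to 58.0 and 23.1 CPM against 17.8 to 71.5 CPM, with 3 above WT and 0 called. Alpha, delta and PP cell genes (6 genes) summed to 15377 and 17026 CPM against 10060 to 12099 CPM, with 5 above WT and 1, Irx2, called higher. Acinar genes (8 genes) differed most between replicates, with 341868 CPM in KO replicate 2 and 10866 CPM in KO replicate 3, and Cpa1 at 40503 and 1224 CPM. The fitted log2 fold change of the acinar genes was above 0 in all 8, with a median of 0.84 and 0 called. None of the lists' genes was at 0 in a 25-week KO library. Their part in the levels of Notch2, Jag1, Hes1 and Hey1 was not tested.

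The same comparison at 8 weeks came before the loss of beta cell transcripts seen at 25 weeks. It gave 0 members called with edgeR, against 0.434% of all genes, and 0 with DESeq2, against 2.1%. At an unadjusted p under 0.05 in edgeR there were 0 members, against 7.87% of all genes. In none of the members did the KO libraries all lie above the WT libraries, which happened in 6.54% of all genes. The fitted change was positive in 9 of 10 members and in 50.4% of all genes, with a median log2 fold change of 0.25 over the members and 0.0039 over all genes. Some of these signs changed in alternatives, as given at the end. Hey1 had the largest, 1.01 (SE 0.46, 95% interval -0.02 to 2.03, adjusted p = 0.646), from 3.84, 2.21 and 1.56 CPM in KO against 1.71, 0.756 and 1.32 CPM in WT libraries. Notch2 was at 6.03, 10.2 and 7.27 CPM in KO and at 9.32, 2.97 and 6.20 CPM in WT libraries, with ranges that overlapped in part (log2 fold change 0.36, 95% interval -0.54 to 1.27). Jag1 was at 6.93, 11.1 and 11.5 CPM against 7.74, 7.97 and 10.6 CPM, and Hes1 at 10.8, 9.58 and 12.8 CPM against 14.7, 10.8 and 7.47 CPM, with log2 fold changes of 0.16 and 0.02. Jag2 was at 32.6, 30.3 and 24.1 CPM against 28.6, 16.3 and 19.2 CPM (log2 fold change 0.45, SE 0.25). Notch1 was at 31.6, 16.1 and 11.0 CPM against 40.6, 12.5 and 26.5 CPM, and Notch3 at 19.3, 11.3 and 6.49 CPM against 16.4, 5.76 and 11.9 CPM, in both cases with replicate 1 as the highest of its group.

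**Figure D3:**
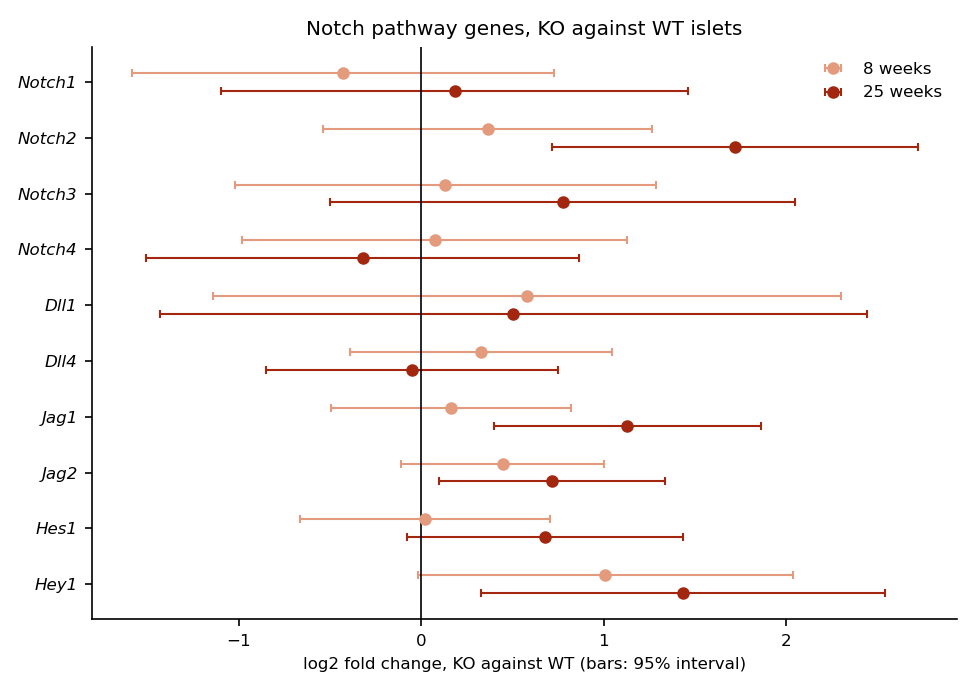
Log2 fold change of KO against WT islets (horizontal axis) for each member at 8 weeks (light) and 25 weeks (dark), with 95% intervals from edgeR. At 25 weeks the intervals of Notch2, Jag1, Jag2 and Hey1 lie above 0, and at 8 weeks every interval includes 0. At 25 weeks these 4 had an unadjusted p under 0.05 in edgeR, as had 20.3% of all genes tested.

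Whether the KO effect differed between ages was tested as an interaction. With edgeR 0 members were called, against 0.198% of all genes, and with DESeq2 0, against 1.82%. At an unadjusted p under 0.05 in edgeR there was 1 member, against 7.76% of all genes. The 1 was Notch2, whose KO effect was larger at 25 weeks by 1.35 on the log2 scale (SE 0.61, unadjusted p = 0.0496, adjusted p = 0.642 in edgeR). The difference was 0.97 (SE 0.44) for Jag1, 0.66 (SE 0.46) for Hes1 and 0.43 (SE 0.69) for Hey1. So the call of Notch2 at 25 weeks and its absence at 8 weeks are not shown to differ.

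The 8-week groups held a larger contrast inside them than between them. Dll1 was at 36.1 and 44.9 CPM in the interferon-high WT libraries and 66.5 and 61.0 CPM in the interferon-high KO libraries, but at 8.63 CPM in WT replicate 1 and 7.16 CPM in KO replicate 1. HET libraries of that age, all with low interferon-induced levels, had 8.36, 9.98 and 12.2 CPM. Dll1 was thus high in both genotypes where interferon-induced genes were high, with the 2 KO libraries above the 2 WT libraries among these, and its KO effect of 0.58 on the log2 scale had an SE of 0.78. Dll4 (KO effect 0.33, SE 0.32) moved the opposite way, at 6.10 and 6.57 CPM (WT) and 9.13 and 8.65 CPM (KO) in the interferon-high libraries, against 13.5 and 14.9 CPM in the 2 replicates 1 and 16.6, 15.4 and 20.1 CPM in HET libraries. Notch4 (KO effect 0.07, SE 0.48) did the same, at 3.84, 4.24, 4.26 and 4.59 CPM in those libraries against 11.2 CPM in each replicate 1 and 10.7, 12.3 and 14.9 CPM in HET libraries. Notch1 was also lower in the 4 interferon-high libraries (11.0 to 26.5 CPM) than in replicates 1 (40.6 and 31.6 CPM) or HET libraries (55.2, 59.6 and 55.0 CPM). These groups of libraries come from the data and not from the labels, so the differences are given without a test.

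Other genes of the pathway split in the same libraries. Dtx3l, a ubiquitin ligase counted here among the Deltex family and named after its values were seen, was at 159 to 267 CPM in the 4 libraries and at 9.80 to 26.6 CPM in the rest. Rbpj was at 40.4 to 55.0 CPM in them and 23.5 to 37.8 CPM elsewhere, and Hes6 at 13.3 to 16.8 CPM against 24.4 to 44.5 CPM. Among the cell markers of 8-week libraries, the endothelial sum was 412 and 518 CPM in the 2 replicates 1, 319.9 to 435 CPM in the interferon-high and 406 to 570.5 CPM in the HET libraries. The pericyte and smooth muscle sum was 300.2 and 373 CPM, 151 to 203 CPM and 119 to 291 CPM in the same order. The Schwann cell sum was 27.8 and 33.2 CPM, 8.37 to 13.5 CPM and 16.4 to 27.4 CPM. The part of these cells, or of a batch, in the split of Dll1, Dll4 and Notch4 was not tested.

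**Figure D4:**
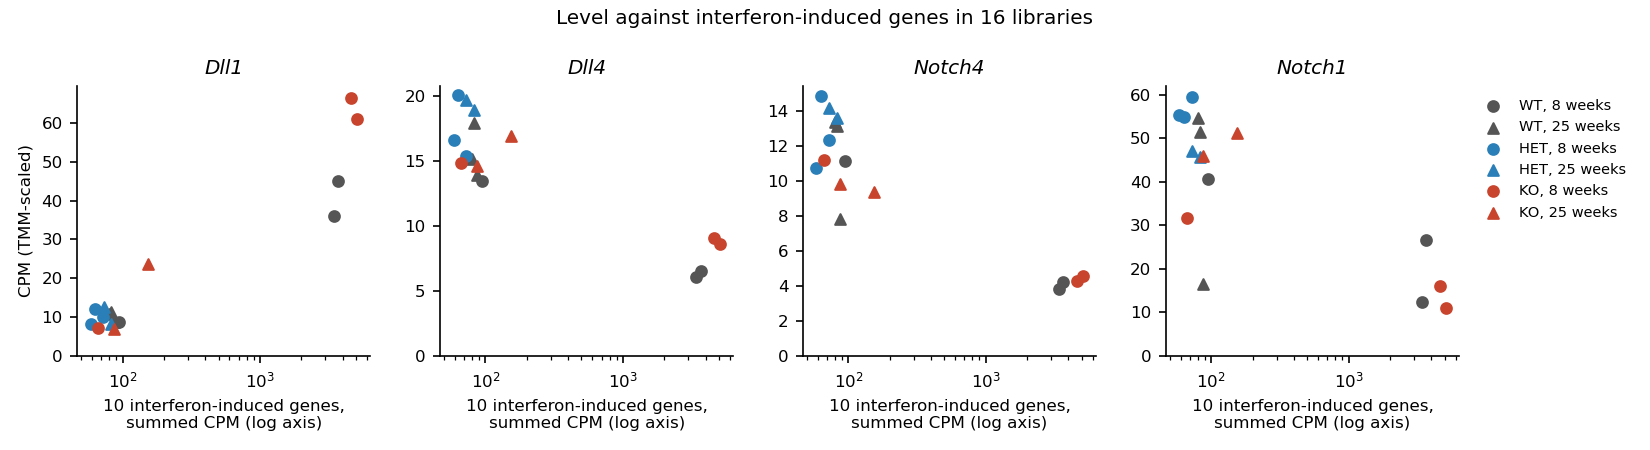
Level of Dll1, Dll4, Notch4 and Notch1 (vertical axis, TMM-scaled CPM from 0) against the summed CPM of 10 interferon-induced genes (log axis) in the 16 libraries; colours are genotypes, circles 8 weeks and triangles 25 weeks. The 4 libraries to the right, 2 WT and 2 KO of 8 weeks, have the highest Dll1 and the lowest Dll4 and Notch4.

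This split bears on each comparison that uses the 8-week WT libraries. Leaving out WT and KO replicate 1, so that only interferon-high libraries remained in those groups (an alternative chosen after the data were seen), left 0 members called for KO against WT at 8 weeks, with a log2 fold change of 0.65 for Dll1 and 0.93 for Notch2. For HET against WT at 8 weeks the full set gave 0 members called with edgeR (4 at an unadjusted p under 0.05, Notch1, Notch4, Dll1 and Dll4; 0 with DESeq2), and 0% of all genes. At an unadjusted p under 0.05 there were 14.6% of all genes, and DESeq2 called 2.16%. Notch1 and Dll4 did not overlap between the groups, as in 19.3% of all genes. Without the replicates 1, 5 members were called, Notch1, Notch4, Dll1, Dll4 and Jag2, beside 16.7% of all genes. There Dll1 fell by 1.97 (edgeR adjusted p = 0.00623) and Dll4 was higher by 1.48 (0.000643) on the log2 scale, in a contrast of interferon-low HET with interferon-high WT libraries. Without WT replicate 1 alone Dll4 was called (edgeR adjusted p = 0.0283), beside 3.2% of all genes. With the interferon level as a term in the model the log2 fold changes were 0.71 for Dll1 and 0.46 for Dll4, and neither was called.

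In the comparison of WT islets at 25 against 8 weeks, age and any batch that goes with it cannot be told apart. Here edgeR called 0 members (2 at an unadjusted p under 0.05, Dll4 and Hey1, and 0 with DESeq2) and 0% of all genes. Of all genes 10.2% had an unadjusted p under 0.05, and DESeq2 called 0.744%. Dll4, Hey1 (higher) and Jag1 (lower) did not overlap between the ages, as in 16% of all genes, with log2 fold changes of 0.87 (SE 0.33), 1.09 (SE 0.47) and -0.50 (SE 0.30). With the 2 replicates 1 left out, 3 were called, Notch4 and Dll4 as higher and Dll1 as lower at 25 weeks, beside 10.3% of all genes, and with the interferon level as a term 0 were called, with a log2 fold change for Dll1 of 0.61 in place of -1.54.

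HET islets at 25 weeks offer a second comparison with WT, between libraries without that split. The fit still took its spread from all 16 libraries, including those that split. Here edgeR called 0 members and 0% of all genes, and DESeq2 called 0 members and 0.0159% of all genes. At an unadjusted p under 0.05 in edgeR there were 0 members and 1.12% of all genes. Notch2 differed by 0.15 on the log2 scale (95% interval -0.98 to 1.29), Jag1 by -0.12 (-0.96 to 0.72), Hes1 by -0.15 (-0.83 to 0.53) and Hey1 by -0.33 (-1.40 to 0.74). Notch4 (13.6 and 14.2 CPM), Notch3 (16.5 and 17.6 CPM) and Dll4 (19.0 and 19.7 CPM) had both HET libraries above the WT libraries, with log2 fold changes of 0.27, 0.50 and 0.30, and 16% of all genes likewise had groups without overlap. With HET libraries in place of WT as control, the 25-week KO effect on Notch2 was 1.60 on the log2 scale (edgeR adjusted p = 0.0998). At 8 weeks, with that control, Notch1 was called as lower in KO, by -1.54 (0.0442; 3.47% of all genes called), in a contrast of interferon-low HET with mostly interferon-high KO libraries.

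Of 53 other genes of the pathway, 46 passed the filter. At 25 weeks 3 were called in KO islets, all higher, a share close to the 6.6% called over all genes, and at 8 weeks and in the interaction 0 (edgeR). Their median log2 fold change at 25 weeks was 0.16. Dlk1, an imprinted, membrane-bound relative of Delta that lacks the receptor-binding motif of the canonical ligands, had the largest change. It was at 23.7 and 37.7 CPM in KO and at 0.654, 0.451 and 0.542 CPM in WT libraries (log2 fold change 5.78, SE 0.75, edgeR adjusted p = 0.002), with 1.14 and 1.28 CPM in HET libraries. It was called in all 22 alternatives. At 8 weeks its KO libraries (8.63, 42.8 and 46.9 CPM) also lay above the WT libraries (3.55, 4.19 and 8.16 CPM), with a log2 fold change of 2.63 (SE 0.58, edgeR adjusted p = 0.106), which passed in 8 of 22 alternatives, for example without KO replicate 1 (0.0101). Like Dll1, it was higher in the interferon-high than in the other library of each 8-week genotype. By group mean, Dlk1 was at 32.8 CPM at 8 weeks and 30.7 CPM at 25 weeks in KO islets. In WT islets it was at 5.30 and 0.549 CPM, the latter from 16 reads over 3 libraries. The larger fold change at 25 weeks thus went with a lower WT level and not with a higher KO level. Between WT ages its log2 fold change was -3.31, with an adjusted p of 0.420 in edgeR and 0.0018 in DESeq2. The Dlk1 start lay in the bivalent state M.

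Neurl1a, a ubiquitin ligase of Delta and Jagged ligands, was at 43.6 and 60.6 CPM against 10.7, 22.4 and 21.5 CPM (log2 fold change 1.45, SE 0.36, edgeR adjusted p = 0.0376). It lost the call without any 1 of the 5 libraries of 25 weeks, with adjusted p from 0.0668 to 0.232, and without KO replicate 4 or 5 of 8 weeks (0.0599 and 0.0576). Neurl1a started in state B.

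Among the remaining pathway genes some also rose. By group mean, Dll3 was at 0.739 CPM in 25-week KO (26 reads) and 0.0752 CPM in WT islets (3 reads). Dlk2 was at 0.632 CPM (26 reads) and 0.0502 CPM (2 reads). Both lie near the floor. Mfng was at 8.57 and 2.70 CPM and Dtx4 at 26.2 and 8.90 CPM in the same order. These were picked for their rise, and of all 46 genes 26 had a log2 fold change above 0. Rbpj, the DNA-binding partner, was at 36.3 and 37.8 CPM in 25-week KO and 23.5, 31.9 and 30.7 CPM in WT libraries (log2 fold change 0.31, SE 0.32). Direct target and feedback genes had low levels: Nrarp was at 0.837 and 1.94 CPM against 0.376 to 0.928 CPM, and Hes5 failed the filter, with 0 reads in all 3 WT libraries of 25 weeks. Heyl, a Hey relative of mural cells, was at 9.51 and 10.7 CPM against 3.05 to 4.87 CPM (log2 fold change 1.33, SE 0.72, adjusted p = 0.345). Hes6 was at 30.0 and 24.4 CPM against 27.3 to 33.0 CPM. Dner, an atypical ligand, was at 26.9 and 33.9 CPM against 16.9 to 21.6 CPM (0.64, SE 0.23, adjusted p = 0.138), and its 8-week KO libraries (26.9, 33.6 and 34.7 CPM) likewise lay above WT (14.9, 18.4 and 18.5 CPM; 0.88, SE 0.21, adjusted p = 0.138). Lfng, which adds sugars to the receptors, was at 16.0 and 3.59 CPM against 0.903 to 8.90 CPM. Neurog3, the endocrine progenitor factor repressed by Hes1, was at 2.13 and 0.484 CPM against 1.74 to 2.26 CPM. None of these was called. Of the receptor proteases 0 of 10, of the glycosyltransferases 0 of 5, of the receptor turnover genes 0 of 9 and of the nuclear complex genes 0 of 8 were called in 25-week KO islets.

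Across the 16 libraries the members were compared by how they deviated from their group means (log2 CPM, Pearson's r, given as a description because the libraries share depth and the interferon split). Notch1 and Notch3 went together at r = 0.97, Notch4 and Dll4 at 0.93, Notch1 and Jag2 at 0.81, and Notch2 and Jag1 at 0.64, whereas Dll1 ran against Notch4 (-0.77) and Dll4 (-0.70). Hes1 was the loosest, its closest member being Notch4 at 0.34. Over 15170 genes the nearest to Notch1 was Hspg2 (0.98), then Gm42748 and Zc3h7b. Notch2 was nearest to Arrb1 (0.91), Prkaa2 and Alpl, and Notch3 to Sort1 (0.98), Rgp1 and Notch1 itself. Notch4 was nearest to Cuedc1 (0.98), B3galt5 and Kcnj12. Dll1 was nearest to Nfkb1 (0.99), Baz1a and Tsr1, and Dll4 to Kctd1 (0.97), Osbpl5 and Bmp1. Jag1 was nearest to Tuba8 (0.97), Piezo1 and H2-Q10, and Jag2 to Lama3 (0.94), Wdr4 and Gm43737. Hes1 was nearest to Hoxb9 (0.87), Sox9 and Atg9b, and Hey1 to Zfp629 (0.94), Ndrg3 and Rnft2.

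On GRCm38 the gene of the called receptor, Notch2 (ENSMUSG00000027878.11), spans chromosome 3 from 98013527 to 98150361 on the plus strand. The ligand that split within the 8-week groups, Dll1 (ENSMUSG00000014773.13), spans chromosome 17 from 15367354 to 15376872 on the minus strand and overlaps A930024N18Rik on the opposite strand, which had 801 reads over the 16 libraries against 5684 for Dll1. Dll4 overlaps Gm14207 (146 reads against 3713), also on the opposite strand. Whether the counting used strand is not given in the sources used here, so reads of such partners cannot be told apart. Jag1, Hes1 and Hey1 overlap no other annotated gene.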

How the data were processed

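Bulk RNA-seq of whole islets was analysed in 16 libraries of 6 groups given by the labels. The deposited gene table holds unnormalized read counts, which the study's methods and processing notes credit to TopHat2 2.0.13 on GRCm38 and featureCounts of Subread with Gencode M9. They also deposited chromatin states of WT islets as letters over 200 bp bins, on autosomes, made by EpicSeg with replicates averaged. The single cells and the ChIP-seq tracks were not used here. No count column was left unused (0). A called pathway gene is not reported here.

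Identifiers were matched to GENCODE M21 (47224 of 47937). The members and lists were chosen with earlier results of these data known. All 10 members were named in every comparison, with pathway genes called in a KO comparison, 9 further pathway genes, markers, and the 3 genes most like each member (mean of at least 1 CPM, prior count 2). The interferon list was chosen after the data were seen.

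Counts were fitted in R 4.3.3 with edgeR 4.0.16 (filterByExpr, TMM, glmQLFit, glmQLFTest, Benjamini-Hochberg): KO comparisons, their interaction and WT age on 11 libraries (18685 genes), HET comparisons on all 16 (18828 genes). SE is the log2 fold change over the root of F. Scripts were tested on simulated data. The p-values measure the spread between libraries, and CPM on the 16-library scale can differ slightly from the fits. DESeq2 1.42.0 was an alternative.

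Replicate numbers recur between groups. Deviations from group means correlated at 0.163 to 0.457 between same-numbered WT and KO libraries, in 4 pairs, and at -0.528 to 0.450 between others. The labels do not say what a number marks, so a block on the number was an alternative. No replicates were copies of each other (chi-square per degree of freedom at least 31.0).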

Additional observations from a re-analysis of the deposited data

How the results depend on the processing

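Of the 10 members, 1 was called in KO islets at 25 weeks. The count was 2 with DESeq2, 3 with WT and HET libraries pooled as control, 0 with HET in place of WT, 0 with all 16 libraries in 1 fit, and 0 to 2 with single libraries left out. After the data were seen, 2 more alternatives were added: leaving out the 8-week WT and KO libraries of low interferon level gave 2, and the interferon level as a term gave 3. Over all genes 11.2% were called with DESeq2, 14.1% with the pooled control, 13.9% without those libraries and 14.1% with the term. The share of all genes was 9.03% with HET in place of WT and 8.99% with all 16 libraries in 1 fit. It ran from 1.98% to 8.76% with single libraries left out, against 6.6% as reported. With the replicate number as a block 0 members were called, beside 5.5% of all genes. The pairing changed no other count of members called. The block was not run for WT age, where a number lies in 1 age only. At 8 weeks the count of 0 became 1 with HET in place of WT. For WT age it became 3, and for HET against WT at 8 weeks 5, without the low-interferon libraries; the latter ranged from 0 to 1 with single libraries left out. Counts stayed at 0 for the interaction and for HET at 25 weeks in all alternatives run.

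Some log2 fold changes, none of them called, changed sign. At 25 weeks Dll4 was 0.22 by library size alone, 0.014 without a filter, 0.023 with the interferon term and 0.0050 with all 16 libraries, and -0.16 to 0.053 with single libraries left out, where Notch1 ranged from -0.19 to 0.44 and Dll1 from -0.63 to 1.11. At 8 weeks with WT and HET pooled as control Notch3 was -0.17, Notch4 -0.51, Dll4 -0.26 and Hes1 -0.20. With HET alone they were -0.43, -0.93, -0.69 and -0.39, and Jag2 was -0.050. With the block Jag1 was -0.048 and Hes1 -0.044, and without a filter Hes1 was -0.0026. Single libraries left out moved Notch3 from -0.33 to 0.46, Notch4 from -0.52 to 0.70 and Hes1 from -0.20 to 0.26. The causes were not tested. Active start sites numbered 5, and 6 within 500 bases or at any transcript start.

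Groups of 2 or 3 libraries limit every test, and Hey1, at 12 reads in its shallowest library, has the least depth. The states come from WT islets and have no replicates, so they say nothing of KO chromatin.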
